A study of Homo sapiens with 16 samples.

Results

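The comparison described here is that of MED1 peaks in MED14-depleted HCT116 cells with and without Nutlin-3a. Its members are the 66 peaks of the auxin and Nutlin-3a list and the 53 peaks of the auxin list, 119 of the 3464 peaks in the 6 deposited lists. Peaks of both lists were paired where they overlapped by at least 1 bp. A peak of the auxin and Nutlin-3a list without a partner is called gained, a peak of the auxin list without a partner is called lost, and each was then looked up in the other 4 lists. HCT116 is a human colorectal carcinoma line. Its edited derivative (genotype OsTir1+/-;Med14-AID+/+) carries the plant F-box protein OsTIR1 and a degron on both copies of the Mediator subunit gene MED14. Its groups received water or 500 µM auxin (IAA) for 3 h, each alone or followed by Nutlin-3a for 1 h. Wild-type (WT) cells received DMSO or Nutlin-3a. The degron line was therefore shared by the auxin and the water groups, and no list measures the loss of MED14 protein itself. The labels do not say how many clones the edited line stands for. Both WT treatments lasted 1 h. For the edited cells without Nutlin-3a the labels name no vehicle. Only the WT pair therefore sets Nutlin-3a against a stated DMSO control.

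Mediator is the large complex that passes signals from transcription factors at enhancers on to RNA polymerase II. MED1 is the subunit of its middle module that contacts nuclear receptors and other activators, and MED14 is the scaffold that joins the head, middle and tail modules. Nutlin-3a occupies the p53 pocket of MDM2, the ubiquitin ligase that keeps p53 low, so that p53 accumulates and acts on its target genes. The comparison asks where MED1 is found on chromatin when p53 is induced in cells from which MED14 is being removed.

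Of the 16 samples, 8 were MED1 immunoprecipitations and 8 were inputs. Each MED14-AID list came from 1 MED1 library, and each WT list was made from 2 replicates together. There was thus no spread between replicates to set a difference against, no test was made, and the intervals given (Wilson, 95%) reflect how many peaks were counted and nothing else. The lists held 1106 (WT DMSO), 1254 (WT Nutlin-3a), 463 (water), 522 (water and Nutlin-3a), 53 (auxin) and 66 (auxin and Nutlin-3a) peaks and gave no read totals, so the depth is unknown. The lowest deposited −log10 q was 2.76 in the auxin list and 2.32 in the auxin and Nutlin-3a list, and a position with less signal than that is simply not listed. The deposited fold enrichment of a peak over its local background is the authors' value. It is set side by side between lists here and is never divided between them, since each list has its own background.

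Peak positions are hg19 and 1-based. Without an hg19 annotation, gene symbols are given as background from general knowledge of where genes lie, and exons, introns and UTRs were not assigned. All 70 symbols used were found in a GRCh38 gene table on the chromosome of their peak. In that table, 0 of 118 gene pairs sharing a chromosome stood in another order than their peaks. Pairs whose peaks start under 5000 bp apart were not compared. Chromosome and order do not check whether a peak lies at the start of a gene or within it.

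A large part of the peaks of the auxin and Nutlin-3a list lay at gene starts, and many of these promoters shared a sequence element. By the naming above, 17 of the 32 gained peaks, 12 of the 34 paired peaks of that list and 1 of the 20 lost peaks lay at the start of at least 1 gene. The 250 bases before those starts were read from RefSeq (GRCh38.p14), for 17 of 22 genes at gained peaks and 12 of 13 at paired peaks. The NRF1 element, GCGCA, then any base, then GCGC, was searched on both strands. NRF1 is a transcription factor of housekeeping and mitochondrial genes. The element was present in 9 of 17 promoters at gained peaks (52.9%) and in 8 of 12 at paired peaks (66.7%), against 5.53% of all 27305 promoters in the table. These promoters are rich in G and C, with a median of 63.6% against 58.0% over all promoters. Among promoters with at least 60% G and C, the element was in 15 of 22 at gained or paired peaks (68.2%) and in 10.3% of all 12287. The motifs were chosen after the peaks were seen. Of these peaks, 28 of the 32 gained and 33 of the 34 paired were also listed in WT DMSO. Promoters at peaks of the WT and water lists were not searched, and the share of those peaks at gene starts was not counted. Whether the element is particular to the auxin lists was therefore not tested.

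To show the element in place, the promoters of 3 gained peaks and of the strongest peak of the auxin list are printed in the direction of the gene, with the last base next to the gene start and NRF1 matches in capitals. ZC3H8 is 1 of the 3 gained peaks also found only with Nutlin-3a in WT cells, SMIM11 and SRSF10 are the highest gained peaks at a start that were found only without Nutlin-3a in water-treated cells, and ADI1, with no match, is a paired peak. A match on the opposite strand reads GCGC, then any base, then TGCGC in print. Coordinates of these sequences are GRCh38.p14 and cannot be set against the hg19 peak positions.
ZC3H8 (chr2:112255043-112255292, minus strand): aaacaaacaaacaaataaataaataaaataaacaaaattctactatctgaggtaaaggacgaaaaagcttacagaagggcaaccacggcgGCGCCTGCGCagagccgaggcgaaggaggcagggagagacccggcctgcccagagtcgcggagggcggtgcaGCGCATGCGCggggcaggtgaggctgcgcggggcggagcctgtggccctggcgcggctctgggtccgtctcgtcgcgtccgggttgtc
SMIM11 (chr21:34375257-34375506, plus strand): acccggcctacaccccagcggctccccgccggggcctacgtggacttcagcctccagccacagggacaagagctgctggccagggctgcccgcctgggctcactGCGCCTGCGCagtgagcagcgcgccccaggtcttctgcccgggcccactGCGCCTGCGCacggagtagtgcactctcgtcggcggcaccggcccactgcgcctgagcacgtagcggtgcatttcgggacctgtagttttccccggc
SRSF10 (chr1:23980328-23980577, minus strand): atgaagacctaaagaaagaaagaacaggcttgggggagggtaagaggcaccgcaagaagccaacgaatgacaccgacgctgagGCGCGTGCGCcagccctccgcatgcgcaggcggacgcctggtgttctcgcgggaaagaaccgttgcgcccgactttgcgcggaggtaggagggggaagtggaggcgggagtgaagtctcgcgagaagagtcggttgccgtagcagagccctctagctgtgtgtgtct
ADI1 (chr2:3519532-3519781, minus strand): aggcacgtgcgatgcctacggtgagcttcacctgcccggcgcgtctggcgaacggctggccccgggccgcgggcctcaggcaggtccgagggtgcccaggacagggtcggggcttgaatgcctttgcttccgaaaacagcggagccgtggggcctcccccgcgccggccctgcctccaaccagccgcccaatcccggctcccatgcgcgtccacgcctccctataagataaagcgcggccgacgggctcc

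The bases around the element differed between the promoters printed here. The following 30-base stretches, with a match in capitals, come from 4 promoters at gained and 4 at paired peaks. They were printed because they hold the element, so the shared core follows from the search. In HEMK2 the bases after the capitals complete a further, overlapping match, which is left in lower case.
PRMT2 (gained peak, chr21:46635480-46635509, plus strand): gatgtgaagtGCGCCTGCGCggggcgcagc
PPP6R1 (gained peak, chr19:55259159-55259188, minus strand): gcaccaacggGCGCAAGCGCgtctgcggcg
TMEM250 (gained peak, chr9:136119013-136119042, minus strand): ccacggaagcGCGCCTGCGCactgcctctc
IRGQ (gained peak, chr19:43596267-43596296, minus strand): ctctcgtggcGCGCAGGCGCgttgactcat
HEMK2 (paired peak, chr21:28885379-28885408, minus strand): gtgagggcatGCGCATGCGCatgcgcacgc
PHF12 (paired peak, chr17:28951671-28951700, minus strand): gctttctcaaGCGCCTGCGCgagacctcag
RAB35 (paired peak, chr12:120116912-120116941, minus strand): ctccgtcaggGCGCGTGCGCgacccgggcg
POLA2 (paired peak, chr11:65261812-65261841, plus strand): gcccgctgatGCGCACGCGCcctgggccgc

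The other 3 motifs searched were less frequent. The ETS element CCGGAAG was in 1 of 17 promoters at gained peaks (YBEY) and 3 of 12 at paired peaks (C10orf88, DNAJA3, ZNF335), against 8.82% of all promoters. The TATA element TATAAA was in 0 of 17 and 1 of 12, against 11.1%. The p53 decamer, the repeat unit of the p53 response element, was in 0 of 17 promoters at gained peaks and in 2 of 12 at paired peaks, against 5.53%. Those 2, EXOC8 and SPRTN, start next to each other and share bases. Among all promoters with at least 60% G and C, ETS was in 13.2%, TATA in 2.83% and the p53 decamer in 3.67%. In the 29 promoters at gained or paired peaks, of any G and C content, the shares were 13.8%, 3.45% and 6.90%. No match says only that these letters are not in this window, and a match is a description of letters, not a bound site. Counted by peak, so that genes sharing a start count once, the NRF1 element was in 8 of 13 gained and 8 of 11 paired peaks with a promoter in the table. The only lost peak at a gene start, SAMHD1, also had it. Whether the letters lie under a MED1 peak was not measured.

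Between auxin alone and auxin with Nutlin-3a, 34 peaks of the Nutlin-3a list paired with 33 of the auxin list. The other 32 of 66 were gained (48.5%, 36.8 to 60.3%) and 20 of 53 were lost (37.7%, 25.9 to 51.2%). With water in place of auxin, 163 of 522 were gained (31.2%, 27.4 to 35.3%) and 104 of 463 were lost (22.5%, 18.9 to 26.5%). In WT cells 439 of 1254 were gained (35.0%, 32.4 to 37.7%) and 293 of 1106 were lost (26.5%, 24.0 to 29.2%). With all peaks counted, both shares were highest under auxin. The difference between the pairs was not tested, and only the WT pair has a stated DMSO control. When the water and WT lists were shortened to the lengths of the auxin lists by −log10 q, 37.9% (water) and 28.8% (WT) were gained and 20.8% and 11.3% were lost. This setting was chosen after the data were seen. The share of gained peaks under auxin lay between 37.2% and 54.5% in the alternatives. When peaks under a −log10 q of 10 were left out of the count and the other list was kept complete, the lost share was 17.6% under auxin, 5.99% with water and 5.98% in WT cells. The gained share at that limit was 37.2%, 12.0% and 15.8% in the same order. Without the peaks at hepatocyte genes and the pericentromeric peaks described below, the lost share under auxin was 11.4%. That value follows from the choice of positions, since 16 of the 18 auxin peaks left out were lost ones.

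**Figure D1:**
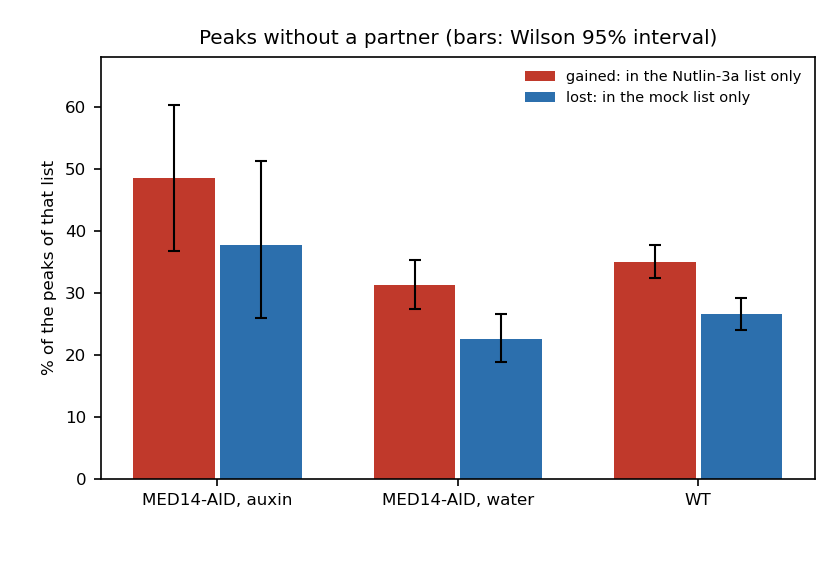
Percentage of the peaks of each list without a partner in the other list of its pair, for auxin-treated MED14-AID, water-treated MED14-AID and WT cells (x axis); red bars are gained peaks, blue bars lost peaks, and error bars Wilson 95% intervals for the counting of peaks. The auxin pair has the highest bars, 48.5% gained and 37.7% lost, and the widest intervals.

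Gained and lost peaks were weaker than paired ones in their own list. Gained peaks had a median fold of 4.83 (range 2.49 to 14.6) and a median −log10 q of 9.72, against 6.88 and 25.1 for the paired peaks of the same list. Lost peaks had a median fold of 4.36 (range 1.74 to 7.96) and a median −log10 q of 8.12, against 6.63 and 23.0 for the paired peaks of the auxin list. In all, 16 of 32 gained and 14 of 20 lost peaks had a −log10 q under 10. Of the 20 highest folds of the auxin and Nutlin-3a list, 18 were paired and 2 were gained. Most gained peaks stood alone: for 28 of 32 the nearest auxin peak was over 1 Mb away or there was none on the chromosome. A gained peak on chromosome 5 (chr5:115265989-115266505) lay 981 bp from a paired auxin peak.

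**Figure D2:**
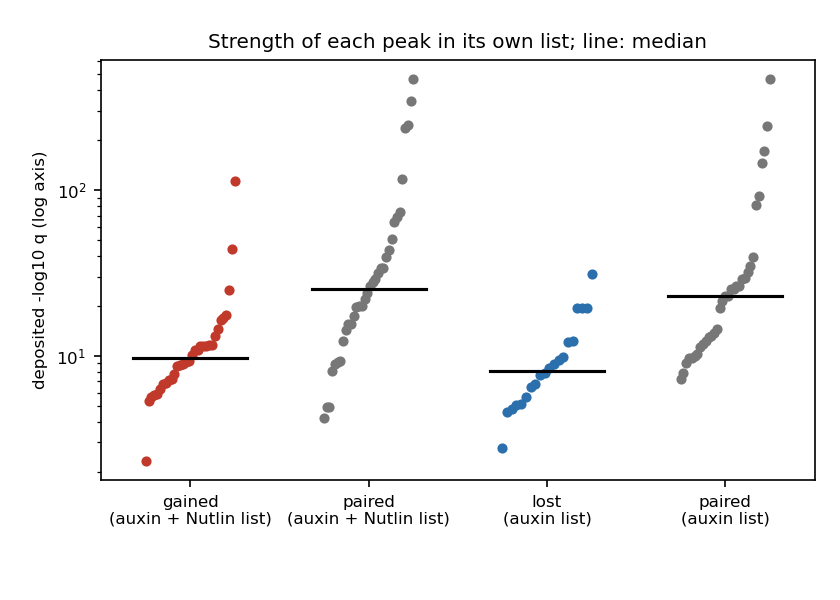
Deposited −log10 q (y axis, logarithmic) of each gained and paired peak in the auxin and Nutlin-3a list and of each lost and paired peak in the auxin list, 1 point per peak, with the median as a line. Medians are 9.72, 25.1, 8.12 and 23.0, from left to right, and 1 gained peak, at YY1, reaches 113.

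The gained peaks were, for the most part, positions where MED1 was also listed in WT cells, with and without Nutlin-3a. Of the 32, 28 were listed in WT DMSO (87.5%, 71.9 to 95%), 31 in WT Nutlin-3a (96.9%, 84.3 to 99.4%), 21 in water (65.6%, 48.3 to 79.6%) and 16 in water and Nutlin-3a (50.0%, 33.6 to 66.4%). By pattern, 14 were in all 4 of these lists, 7 in both WT lists and water without Nutlin-3a, 7 in both WT lists only, 2 in both lists with Nutlin-3a only, 1 in WT Nutlin-3a only and 1 in none. Requiring a reciprocal overlap of 50% left 4 of 36 in all 4 lists (11.1%). Thus 3 of the 31 that were listed in WT cells with Nutlin-3a were gained there too (9.68%), where 35.0% of that whole list was. With water it was 2 of 16, where 31.2% of that list was gained. The paired peaks of the auxin and Nutlin-3a list were lower still, with 1 of 34 gained in WT cells (2.94%) and 0 of 33 with water. A share below that of the whole list was therefore not particular to gained peaks.

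**Figure D3:**
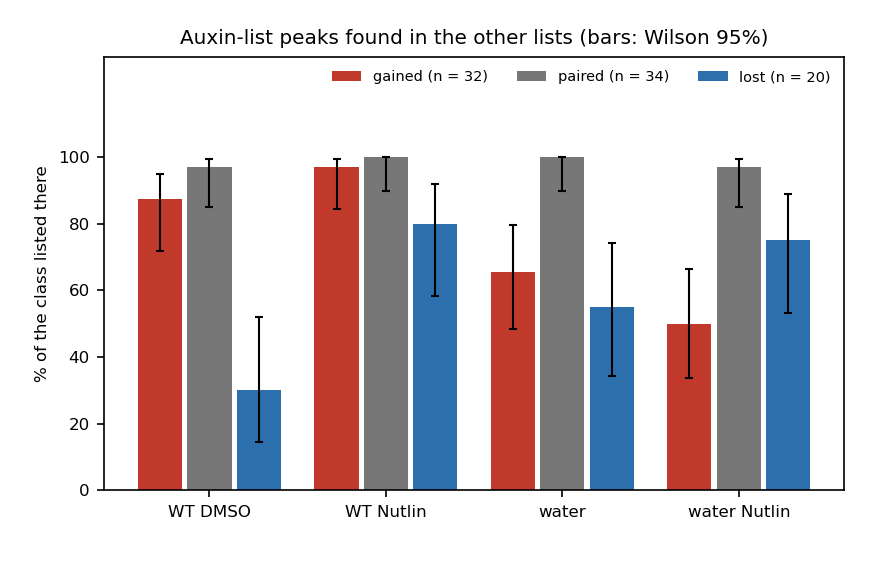
Percentage of gained (red), paired (grey, peaks of the auxin and Nutlin-3a list) and lost (blue) peaks that overlap a peak of each of the other 4 lists (x axis), with Wilson 95% intervals. Gained peaks are at 87.5% in WT DMSO and lost peaks at 30.0%, while paired peaks are at 97.1% or more in every list.

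The 3 gained peaks that were Nutlin-only in WT cells lay at YY1, near SKOR1 and at ZC3H8. YY1 encodes a zinc-finger transcription factor that can activate or repress. Its peak, chr14:100743361-100745123, had a fold of 14.6 and a −log10 q of 113 with auxin and Nutlin-3a, the fifth highest fold of that list. It was listed at 13.8 in WT cells with Nutlin-3a and at 3.78 with water and Nutlin-3a, and in none of the 3 lists without Nutlin-3a. The position was thus in all 3 lists with Nutlin-3a and in no list without it.

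SKOR1 encodes a transcriptional corepressor of the SKI family. The peak near it, chr15:68132013-68133023, had a fold of 8.91 with auxin and Nutlin-3a and 12.6 in WT cells with Nutlin-3a, and was in no other list. Among the lists with Nutlin-3a it was missing from water-treated cells. ZC3H8 encodes a zinc-finger protein of the little elongation complex, which acts in transcription of small nuclear RNA genes. Its peak at the gene start, chr2:113012384-113012994, was listed at 5.21 with auxin and Nutlin-3a, 4.26 in WT cells with Nutlin-3a and 4.27 with water and Nutlin-3a. No list without Nutlin-3a held it, which is the pattern of YY1 at lower folds.

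NEAT1, the long noncoding RNA that scaffolds paraspeckles and a known p53 target, was 1 of 28 p53 target genes on a fixed list with a peak in the auxin and Nutlin-3a list. None of the 28, which include CDKN1A and MDM2, had a peak in the auxin list. Lists of 66 and 53 peaks leave most genes without one, and the share over all genes was not counted. These counts therefore say nothing particular about p53 targets. The NEAT1 peak, chr11:65189580-65190334, had a fold of 6.29. It was also listed at 7.07 in WT DMSO, 16.3 in WT Nutlin-3a, 8.88 in water and 12.6 in water and Nutlin-3a. The locus was therefore listed without Nutlin-3a in WT and in water-treated cells, and missing without it only under auxin.

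A further 7 gained peaks (21.9% of the 32) went the other way in water-treated cells, listed without Nutlin-3a and not with it. Of the 21 gained peaks listed in water, these 7 were lost with Nutlin-3a there, where 22.5% of that whole list was. All 7 were in both WT lists. They lay at the starts of SMIM11, SRSF10, ZNF576 and IRGQ, SRD5A1 and NSUN2, PPP6R1 and PAGR1, and at chr13:114616546-114617070. Those below rank 12 among gained peaks by fold were chosen after their values were seen. SRSF10, an SR-family splicing factor, had a fold of 6.25 with auxin and Nutlin-3a (chr1:24306551-24307229), 6.09 in WT DMSO, 5.37 in WT Nutlin-3a and 5.42 in water. SMIM11, a small membrane protein, was listed at 6.56 with auxin and Nutlin-3a (chr21:35747414-35748005), 5.67 in WT DMSO, 4.52 in WT Nutlin-3a and 6.06 in water. PPP6R1, a regulatory subunit of protein phosphatase 6, and PAGR1, a partner of the KMT2C and KMT2D methyltransferases, stood at 4.33 and 4.11 with auxin and Nutlin-3a. In the water list these 2 stood at 4.90 and 5.01. None of the 7 had a fold above 6.56 with auxin and Nutlin-3a.

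Gained peaks at gene starts and elsewhere were also followed through the other lists. Of the 17 gained peaks at starts, 16 were in WT DMSO, 17 in WT Nutlin-3a, 11 in water and 6 in water and Nutlin-3a. The 15 elsewhere were in these lists 12, 14, 10 and 10 times. Gained peaks in both WT lists but in no water list included those at TMEM250 (5.52 with auxin and Nutlin-3a), at PRMT2, an arginine methyltransferase (5.33), and between YBEY and MCM3AP (5.36). Another, near STK32C and LRRC27 (chr10:134145203-134145715), was listed at 5.89 with auxin and Nutlin-3a, 8.10 in WT DMSO and 5.41 in WT Nutlin-3a.

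The 14 gained peaks found in all 4 other lists included NEAT1, KRT81 and the pair of TUBD1 and RPS6KB1. At KRT81, a hair keratin gene, the fold was 5.64 with auxin and Nutlin-3a (chr12:52674210-52674881), 5.87 in WT DMSO, 7.24 in WT Nutlin-3a, 9.86 in water and 5.81 in water and Nutlin-3a. At TUBD1 and RPS6KB1, delta tubulin and the S6 kinase, it was 5.51 (chr17:57969971-57970610), against 6.30, 5.03, 3.87 and 4.18 in the same order. KRT81 thus had its highest listed fold with water, and TUBD1 and RPS6KB1 in WT DMSO. The following 3 were picked after their values were seen, as examples of the rest. ATP11A, a phospholipid flippase gene, held a peak (chr13:113526996-113527661) of 3.66 with auxin and Nutlin-3a, 4.72 in WT DMSO, 7.44 in WT Nutlin-3a, 12.3 in water and 7.07 in water and Nutlin-3a. Near EHF, an epithelial ETS factor gene, the same order gave 4.59 (chr11:34621063-34621577), 7.50, 6.67, 9.88 and 5.29. At the start of UCA1, a long noncoding RNA first described in urothelial carcinoma, it gave 5.10 (chr19:15939185-15940029), 6.51, 7.81, 7.54 and 7.86. The folds at these 3 positions were lowest with auxin and Nutlin-3a among the lists that held them. The weakest gained peak by fold, chr3:75697819-75698439 at 2.49, was the one found in no other list. The 3 peaks nearest the listing limit of the auxin and Nutlin-3a list were a gained one within AFG3L1P (chr16:90061738-90062262, −log10 q of 2.32) and 2 paired ones, pericentromeric on chromosome 1 (4.19) and near CYTH4 and ELFN2 on chromosome 22 (4.91).

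**Figure D4:**
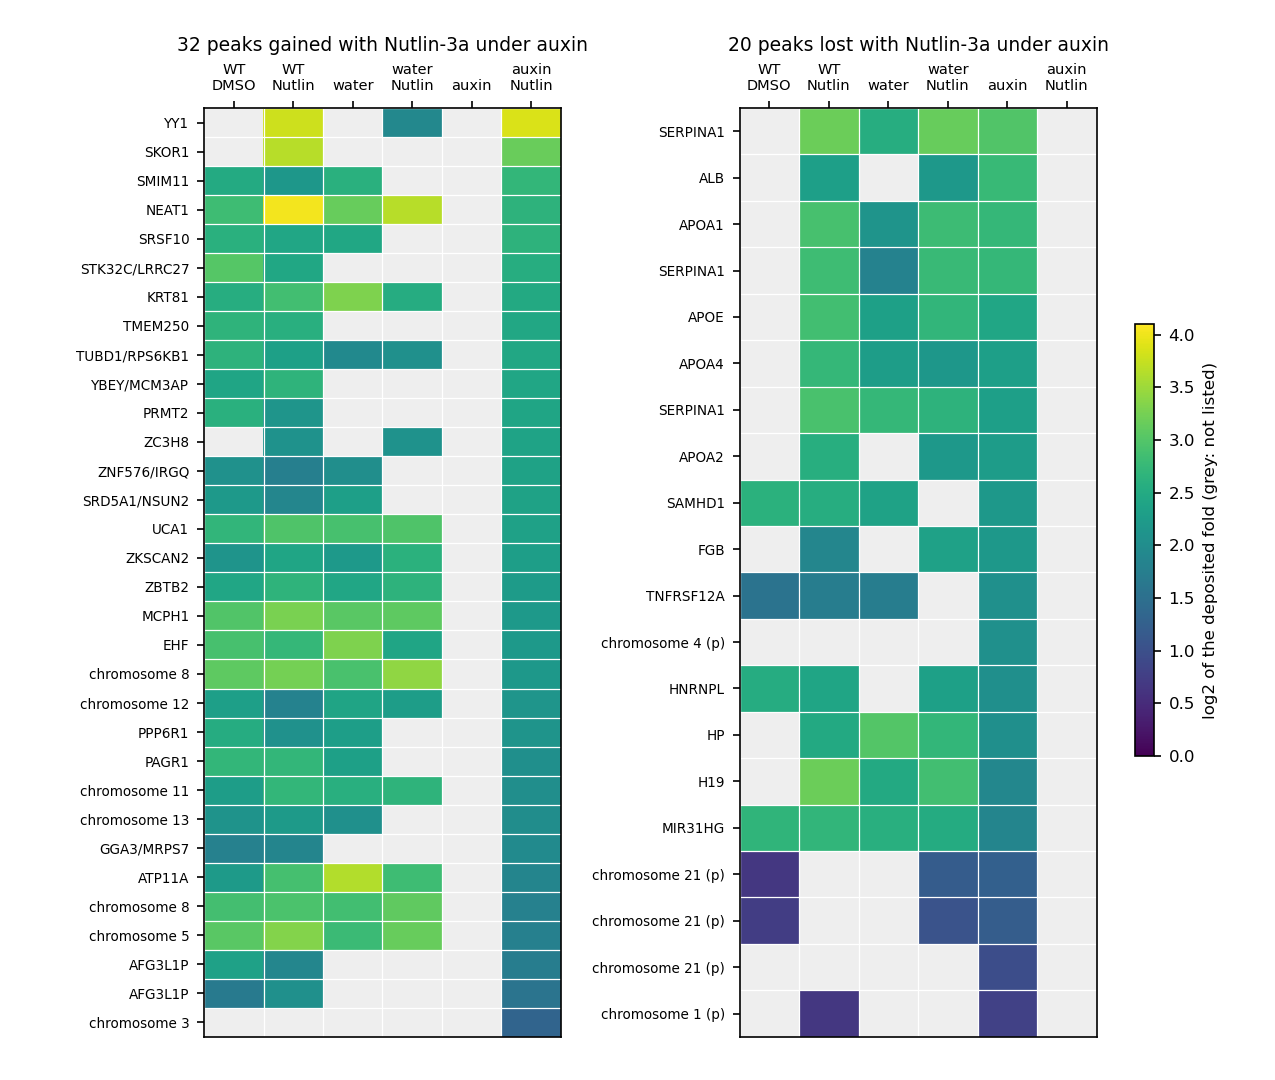
Deposited fold on a log2 colour scale of each gained peak (left, 32 rows) and lost peak (right, 20 rows) in the 6 lists (columns), sorted by fold in its own auxin list; grey means not listed, and (p) marks pericentromeric positions. YY1 and ZC3H8 are coloured in the 3 columns with Nutlin-3a only, and the peaks at SERPINA1, APOA1 and other hepatocyte genes are grey in WT DMSO and in auxin with Nutlin-3a.

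Of the 20 lost peaks, 11 lay at genes of a list of hepatocyte markers, 5 were pericentromeric and 4 were elsewhere. The list was chosen with earlier results of these data known, so the count of 11 is a description and no independent result. Of 19 hepatocyte genes on that list, 10 had a peak in the auxin list (ALB, APOA1, APOA2, APOA4, APOE, FGA, FGB, H19, HP and SERPINA1) and 1, FGA, had one in the auxin and Nutlin-3a list. Of 13 genes of colon carcinoma epithelium, 2 (KRT80 and CCAT1) had a peak in both, and the others, EPCAM and KRT8 among them, had none in either. The 12 auxin peaks at hepatocyte genes were listed 0 times in WT DMSO, 12 in WT Nutlin-3a, 9 in water, 12 in water and Nutlin-3a and 1 in auxin and Nutlin-3a. Their fold ranged from 3.70 to 9.03 in WT Nutlin-3a, 3.51 to 8.02 in water, 4.40 to 8.83 in water and Nutlin-3a and 3.72 to 7.96 in auxin. The 12 were taken from the auxin list, so their presence there is by choice. They were listed more often with Nutlin-3a than without it in WT cells and with water, and less often under auxin. Whether Nutlin-3a or auxin had a part in this was not tested. The source of their signal, HCT116 chromatin or another, was not tested either.

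SERPINA1 encodes the secreted protease inhibitor alpha-1 antitrypsin and had 3 of the lost peaks. The highest, chr14:94849057-94849850, had a fold of 7.96 in the auxin list, rank 9 of 53, and was listed at 9.03 in WT Nutlin-3a, 5.86 in water and 8.83 in water and Nutlin-3a. The other two, chr14:94844774-94845389 and chr14:94847277-94847778, had auxin folds of 6.63 and 4.95. All 3 were absent from WT DMSO and from auxin with Nutlin-3a. ALB, the gene of serum albumin, had a peak at chr4:74283402-74283962 with 6.77 in auxin, 4.98 in WT Nutlin-3a and 4.56 in water and Nutlin-3a. It was absent from WT DMSO, water, and auxin with Nutlin-3a.

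The apolipoprotein genes, whose products carry lipid in plasma, gave 4 lost peaks. In the auxin list, APOA1 (chr11:116706661-116707337) was listed at 6.63, APOE (chr19:45411768-45412428) at 5.39, APOA4 (chr11:116691771-116692347) at 4.98 and APOA2 (chr1:161192118-161192625) at 4.83. APOA1 stood at 7.47 in WT Nutlin-3a, 4.33 in water and 7.01 in water and Nutlin-3a. APOA2 was missing from water, the others were not. The remaining 3 lay at FGB, a fibrinogen chain (chr4:155490250-155490769, 4.56), at HP, haptoglobin (chr16:72093924-72094432, 4.12), and at H19, an imprinted noncoding RNA (chr11:2017975-2019003, 3.72). FGA, another fibrinogen chain, was the only one of these genes with a paired peak. Its fold was 5.81 in auxin and 4.18 with auxin and Nutlin-3a, with a −log10 q of 14.5 and 4.92.

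The 5 pericentromeric lost peaks were low. They were chr4:49272489-49272991 with a fold of 4.15, 3 on chromosome 21 with folds of 2.39, 2.30 and 1.96, and chr1:142536234-142536849 with 1.74, the lowest of the lost. Those on chromosome 21 at chr21:11108816-11109540 and chr21:11127614-11128176 were listed in WT DMSO (1.59 and 1.68) and in water and Nutlin-3a (2.29 and 2.08). The chromosome 4 peak and chr21:11115717-11116307, the latter with the lowest −log10 q of the list (2.76), were in no other list. The next peaks above that limit were chr21:11108816-11109540 (4.59) and one near MIR31HG (4.75), both lost.

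The 4 lost peaks elsewhere were listed in both WT lists. SAMHD1, the phosphohydrolase that lowers cellular dNTPs, had a peak at its start (chr20:35579982-35580481) of 4.56 in auxin, 6.12 in WT DMSO, 5.85 in WT Nutlin-3a and 5.13 in water. TNFRSF12A, the receptor of the cytokine TWEAK, stood at 4.16 in auxin (chr16:3070623-3071122), 2.96 in WT DMSO, 3.35 in WT Nutlin-3a and 3.33 in water. These 2 were the lost peaks that were also lost with Nutlin-3a in water-treated cells. HNRNPL, an RNA-binding splicing regulator, went the other way there: it was absent from water and listed at 5.04 with water and Nutlin-3a (chr19:39339804-39340303, 4.14 in auxin). The peak near MIR31HG, the host transcript of miR-31 (chr9:21591691-21592190), was the only lost peak in all 4 other lists, at 6.41, 6.48, 6.01 and 5.73.

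As a class, lost peaks were thus seldom in WT DMSO (6 of 20, 30.0%, 14.5 to 51.9%) and more often in WT Nutlin-3a (16 of 20, 80.0%, 58.4 to 91.9%). With water they were listed in 11 of 20 cases (55.0%) without and 15 of 20 (75.0%) with Nutlin-3a. Of the 20, 12 were gained with Nutlin-3a in WT cells, 75.0% of the 16 listed there, where 35.0% of the whole list was gained. These were the 11 at hepatocyte genes and the pericentromeric peak on chromosome 1. Only 2 were lost in WT cells too, both pericentromeric on chromosome 21.

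Nearly all paired peaks were at positions listed in every condition. Of the 34 in the auxin and Nutlin-3a list, 33 were in WT DMSO, 34 in WT Nutlin-3a, 34 in water and 33 in water and Nutlin-3a. The listed fold was the larger number in the Nutlin-3a list in 22 of 34 pairs (64.7%) and the smaller in 12, which is no measured change, as the 2 lists differ in background and in unknown depth. The same share was 51.2% of 377 pairs with water and 65.3% of 847 in WT cells. Folds of the pairs ranked alike (Spearman's rho of 0.82 over 34 pairs, against 0.50 over 377 with water and 0.64 over 847 in WT cells), a description of libraries with their own depth and background. Summits lay a median of 27.0 bp apart under auxin, 116 bp with water and 83.0 bp in WT cells, and 25 of 34 were within 100 bp.

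The 4 highest folds of both auxin lists belonged to the same 4 positions. ADI1, an enzyme of methionine salvage, had a peak at its start (chr2:3522282-3523335) of 46.1 in auxin and 36.5 with Nutlin-3a, and between 40.5 and 49.9 in the other 4 lists. Between RFX2 and MLLT1, a transcription factor gene and the gene of the elongation factor ENL, the peak (chr19:6199193-6200095) ranked 2 and 1, with folds of 26.4 and 40.4. Near ADRA2C, an adrenergic receptor gene, folds were 24.2 and 32.6 (chr4:3748056-3748744). Near GPRC5A, an orphan receptor gene known as induced by retinoic acid, they were 16.8 and 33.7 (chr12:13080180-13080952), with 22.8 in WT DMSO, 25.4 in WT Nutlin-3a, 38.1 in water and 25.8 in water and Nutlin-3a. The higher value at GPRC5A was thus found with Nutlin-3a under auxin and without it under water.

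The next paired peaks were at HEMK2, a protein methyltransferase (chr21:30257318-30258085, 16.0 in auxin and 12.1 with Nutlin-3a), and at PHF12, a component of Sin3 corepressor complexes (chr17:27278267-27279039, 11.7 and 14.0). An unnamed position, chr20:1820181-1820886, had 9.33 and 13.4. Just past the end of MCPH1, the gene of microcephalin, the peak had folds of 7.63 and 14.2 (chr8:6506098-6507110), beside 6.26 in WT DMSO, 12.2 in WT Nutlin-3a, 6.04 in water and 7.56 in water and Nutlin-3a. It was higher with Nutlin-3a in all 3 pairs. RAB35, a GTPase of endocytic recycling, had 4.83 and 9.30 at its start (chr12:120554584-120555141), while it was lower with Nutlin-3a in WT cells (8.92 and 6.66) and with water (4.66 and 4.29).

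**Figure D5:**
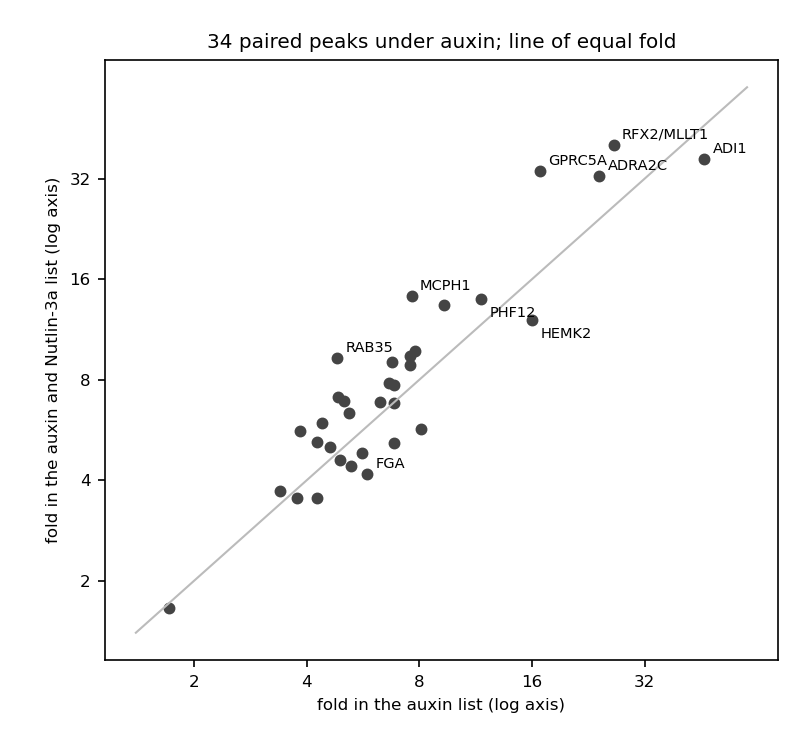
Deposited fold of each of the 34 paired peaks in the auxin list (x axis) and in the auxin and Nutlin-3a list (y axis), both logarithmic, 1 point per pair, with the line of equal fold. Of the points, 22 lie above the line and 12 below, ADI1 (46.1 and 36.5) among the latter.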

How the data were processed

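MED1 ChIP-seq peak lists were used as deposited; inputs had no list of their own. Per the submitters' processing notes, the authors used MACS2 2.1.2 for peaks, Bowtie 0.12.9 for alignment and hg19 as the genome; the settings are not given in the sources used here. The fold enrichment is the deposited ratio over background, the −log10 q values are those the authors deposited, and the deposited summit offset is another value used for distances. Each MED14-AID list is 1 library and each WT list joins 2 replicates, per the labels and the peak names.

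Peaks were paired by an overlap of at least 1 bp, and shares have Wilson 95% intervals. Named positions are the 12 highest gained and paired peaks by fold, all lost peaks, gained peaks that are Nutlin-only elsewhere and the 3 peaks nearest each listing limit. The members, rule and gene lists were chosen with earlier results of these data known. The 4 motifs, searched in the 250 bases before RefSeq GRCh38.p14 gene starts, and the printed promoters were chosen after the peaks were seen, and the background of at least 60% G and C after the NRF1 count. Genes sharing a start share sequence and are not independent. AFG3L1P, NEAT1, NSUN2, UCA1, ZKSCAN2 and XRCC5 were not in the promoter table. Scripts ran in Python 3.11.15 with scipy 1.17.1, pandas 2.3.3, matplotlib 3.10.9 and numpy 2.4.6. Pairing was tested on simulated peaks and against bedtools 2.31.1.

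The alternatives counted peaks up to 1 kb apart as the same, asked for a reciprocal overlap of 50%, or used −log10 q limits of 5 and 10 in both lists or only the list counted, equal list lengths, regions stitched from neighbouring peaks, autosomes and X only, and leaving out 12 positions set apart earlier. Shorter water and WT lists, and leaving out hepatocyte-gene and pericentromeric peaks, were added after the data were seen.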

Additional observations from a re-analysis of the deposited data

Results flagged for a closer look

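Some positions went opposite ways with Nutlin-3a in different cells, and none of these differences was tested, since each condition has 1 list. A set of 12 positions was lost with Nutlin-3a under auxin and gained with it in WT cells: the lost peaks at ALB, APOA1, APOA2, APOA4, APOE, FGB, H19, HP and SERPINA1 (3 peaks), and chr1:142536234-142536849. A set of 6 was lost under auxin and gained with water: ALB, APOA2, FGB, HNRNPL, chr21:11108816-11109540 and chr21:11127614-11128176. In the other direction, 7 positions were gained under auxin and lost with water: SMIM11, SRSF10, ZNF576 and IRGQ, SRD5A1 and NSUN2, PPP6R1, PAGR1 and chr13:114616546-114617070. The set of 12 was drawn from 16 lost peaks in the WT Nutlin-3a list, where 35.0% of all peaks were gained. The set of 6 was drawn from 15 lost peaks in the water and Nutlin-3a list, where 31.2% were gained. The set of 7 was drawn from 21 gained peaks in the water list, where 22.5% were lost.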

How the results depend on the processing

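No paired analysis was possible because each condition has 1 list and no test was made. Other settings moved 5 of 50 values of the auxin comparison beyond their counting interval. These settings changed overlap, threshold, list length, stitching or chromosomes, or left out the 12 positions set apart earlier. The lost share under auxin, 37.7%, became 17.6% when only auxin peaks reaching a −log10 q of 10 were counted against the complete Nutlin-3a list. Water gave 5.99% and WT cells 5.98% at that limit. With the limit in both lists, the lost share was 29.4% under auxin, 22.1% with water and 14.3% in WT cells. Without those 12 positions, the lost share under auxin became 19.5%, below the 22.9% with water and 26.5% in WT cells in the same setting. In an alternative added after the data were seen, it became 11.4% without hepatocyte-gene and pericentromeric peaks. Both falls follow from the choice of positions, since the 12 are all lost peaks, as are 16 of the 18 auxin peaks left out in the other case. The share of gained peaks in all 4 other lists, 43.8%, became 11.1% with a reciprocal overlap of 50%. The share of lost peaks that were Nutlin-only in WT cells, 60.0%, became 100% (6 of 6) with the limit of 10 on the lost peaks only, 70.0% (7 of 10) with that limit in both lists, and 0 of 8 without the 12 positions, again by construction. The gained share under auxin ranged from 37.2% to 54.5%. The shares with water and in WT cells moved in 22 of 40 such settings. Their lists are longer and their counting intervals narrower, so a smaller shift counts as moved. The 5 of 50 and the 22 of 40 therefore do not say which shares are more stable. Depth is unknown and limits every statement that a peak is absent.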
